A study of Arabidopsis thaliana with 12 samples.

Results

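The genes described here are 43 nuclear genes of Arabidopsis thaliana that encode proteins of the photosynthetic membrane, chosen by gene identifier from the 32743 genes in the count tables. Of these, 17 encode antenna proteins (LHCA1 to LHCA4 and 13 LHCB genes), 12 encode subunits of photosystem I (PSAD to PSAO), 11 encode subunits of photosystem II (PSBO to PSBY, PSBTn and PSBS), and the other 3 are PETC, ATPC1 and ATPD. RNA was sequenced from leaves of plants in the vegetative state at 35 days, grown in long days without treatment. The otp90 plants carry a T-DNA insertion in OTP90 (AT1G25360), which encodes an editing protein of the pentatricopeptide repeat family, and all come from 1 insertion line. WT plants were Columbia-0 without the insertion. The libraries fall into 4 groups of 3 biological replicates each, named Mito otp90, Mito WT, Total otp90 and Total WT. The sources used here do not describe how the Mito extracts were made, so Mito and Total are used only as the names of 2 RNA preparations.

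Light is captured in leaves by chlorophyll held in antenna proteins, which pass the energy to the reaction centres of photosystem II and photosystem I. The core proteins of both reaction centres are made from plastid genes, whereas the antenna and many peripheral subunits are made from nuclear genes, translated in the cytosol and imported. LHCB1, LHCB2 and LHCB3 form the trimers of the major antenna, LHCB4 (CP29), LHCB5 (CP26) and LHCB6 (CP24) are single antenna proteins beside photosystem II, and the LHCA proteins form the belt of photosystem I. The messages of these genes are among the most abundant of a green leaf and are known to follow light and the circadian clock.

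The libraries held 24660745 to 30706658 counts in Mito otp90, 27611023 to 32418348 in Mito WT, 56800553 to 60464017 in Total otp90 and 49434596 to 52443538 in Total WT. Nuclear genes took 46.9% to 52.7% of the counts in the 6 Mito libraries and 36.9% to 42.1% in the 6 Total libraries, and plastid genes took most of the rest. OTP90 itself had 6 to 17 counts in Mito otp90 against 16 to 20 in Mito WT, and 6 to 10 counts in Total otp90 against 6 to 16 in Total WT, too few to check the genotype labels. The libraries were leaf-like in their markers. RBCS1A, RCA and CA1, which are mesophyll genes, summed to 8482 to 9272 CPM (counts scaled to library size) in Mito otp90, 7767 to 8356 in Mito WT, 10915 to 13604 in Total otp90 and 10633 to 15020 in Total WT. The root genes EXPA7, COBL9 and PRP3 summed to at most 0.107 CPM in any library, and EXPA7 was at 0 in all of them. CPM values are scaled by TMM factors, the trimmed mean of M values, and shares of counts are not.

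All 43 genes passed the filter on low counts in each comparison, and together they took a large share of the RNA. They held 4.84% to 5.20% of all counts in Mito otp90, 5.26% to 5.52% in Mito WT, 6.43% to 7.46% in Total otp90 and 6.20% to 7.53% in Total WT. Ranked by CPM per kilobase of exon, 32 of them were among the 100 highest nuclear genes in Mito otp90, 33 in Mito WT, 38 in Total otp90 and 39 in Total WT. Replicates of the Mito preparation were close together, with a median coefficient of variation over the 43 genes of 5.64% in Mito otp90 and 3.14% in Mito WT. The Total libraries were more spread, with a median of 9.90% in Total otp90 and 20.1% in Total WT. Replicate 2 of Total WT was the lowest of its group for 42 of the 43 genes, with a median of -0.38 on the log2 scale from the group mean. Replicate 1 of Total otp90 was the highest of its group for 42 of the 43. The counts and medians over the 43 genes, the class medians and the class shares are therefore also given without these libraries.

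**Figure D1:**
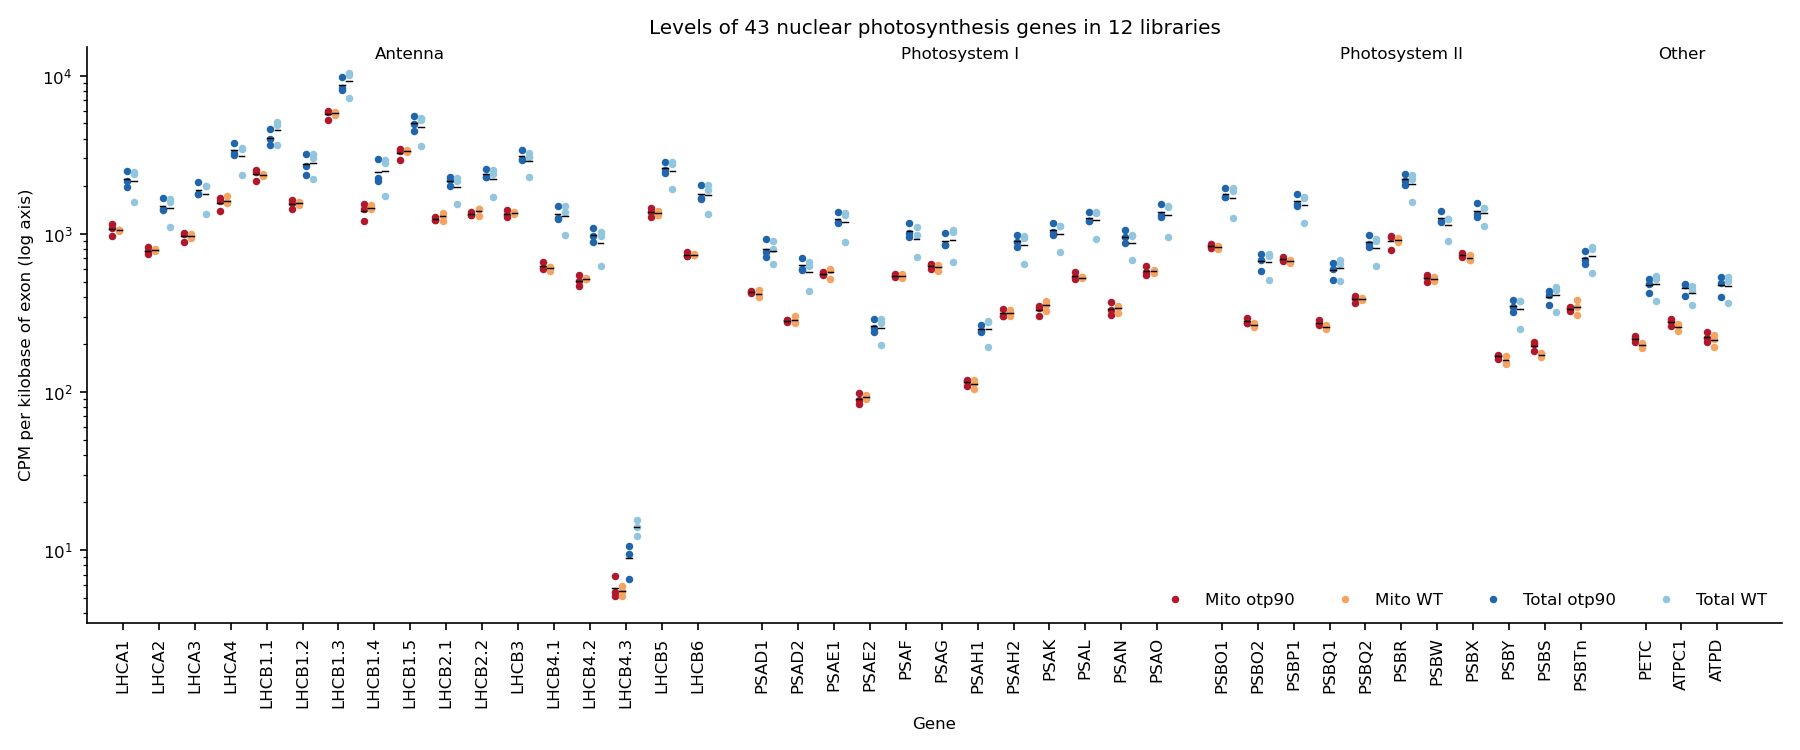
CPM per kilobase of exon (log axis) for each of the 43 genes, with 1 point for each library and a black line at the mean of each group of 3. The Mito points lie below the Total points for nearly every gene, LHCB1.3 stands highest, and LHCB4.3 lies far below all others.

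Among the antenna genes, LHCB1.3 (AT1G29930, chr1:10477885-10479114, plus strand), which encodes a protein of the major trimeric antenna, was the most abundant per length. Its level was 5724 ± 395 CPM per kilobase in Mito otp90, 5779 ± 136 in Mito WT, 8778 ± 915 in Total otp90 and 9248 ± 1746 in Total WT (SD, n = 3 each). Before scaling to length, it had 7296, 6481 and 7347 CPM in Mito otp90 against 7138.5, 7259 and 6928 CPM in Mito WT, and 12079, 10339 and 9973 CPM in Total otp90 against 12436, 8904 and 12787 CPM in Total WT. The 5 LHCB1 copies were unequal. LHCB1.3 held 40.1% of their summed level per length in Mito otp90, 39.8% in Mito WT, 38.1% in Total otp90 and 38.8% in Total WT. LHCB1.5 came next with 22.7%, 23.1%, 21.7% and 19.9% in the same 4 groups, so both preparations and both genotypes kept the order of these 2 copies.

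At the other end stood LHCB4.3 (AT2G40100, chr2:16745628-16747424, plus strand), a variant of CP29 that is also called LHCB8. It had 5.79 ± 0.930 CPM per kilobase in Mito otp90, 5.49 ± 0.414 in Mito WT, 8.91 ± 2.11 in Total otp90 and 13.9 ± 1.62 in Total WT (SD, n = 3 each). LHCB4.3 made up 0.514%, 0.486%, 0.382% and 0.662% of the summed LHCB4 level in the same order of groups, and LHCB4.1 and LHCB4.2 made up the rest. It had 207 to 980 counts per library, fewer than any other of the 43 genes.

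Of the photosystem I subunits, averaged over the groups, PSAO, which takes part in the docking of antenna to photosystem I, had the highest level per length, and PSAE2, 1 of 2 genes for the stromal subunit that helps ferredoxin to bind, had the lowest. Neither place held in every group. In Mito, PSAG was above PSAO, with 629 ± 24.0 CPM per kilobase in Mito otp90 and 614 ± 28.2 in Mito WT, and in Total, PSAH1 was below PSAE2, with 249 ± 14.1 in Total otp90 and 249 ± 50.1 in Total WT (SD, n = 3 each). Levels were divided by full exon length, although reads across exon junctions were not aligned in full. All 75-base windows of PSAG lie inside 1 exon, against 80.3% for PSAO, so their order is uncertain. Other orders and copy shares per length carry the same limit. PSAO had 581 ± 40.9 CPM per kilobase in Mito otp90, 582 ± 12.4 in Mito WT, 1378 ± 144 in Total otp90 and 1312 ± 304 in Total WT (SD, n = 3 each). Its libraries had 513.0, 467.4 and 447.6 CPM in Mito otp90 against 480.4, 484.0 and 464.9 CPM in Mito WT, and 1263, 1041 and 1082 CPM in Total otp90 against 1223, 787.7 and 1214 CPM in Total WT. The genotypes overlap in both preparations. PSAE2 had 90.8 ± 7.65, 93.2 ± 2.34, 261 ± 25.8 and 253 ± 48.9 CPM per kilobase in the same groups. The partner of PSAE2, PSAE1, therefore supplied 86.0% of the PSAE level in Mito otp90, 86.0% in Mito WT, 82.7% in Total otp90 and 82.4% in Total WT.

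Of the photosystem II subunits, PSBR, a small protein needed for stable binding of the oxygen-evolving proteins, was the highest per length and PSBY, a low-mass membrane subunit, the lowest. PSBR had 905 ± 98.1 CPM per kilobase in Mito otp90, 916 ± 28.8 in Mito WT, 2210 ± 179 in Total otp90 and 2059 ± 402 in Total WT (SD, n = 3 each). Its libraries had 752.5, 621.0 and 755.8 CPM in Mito otp90 against 742.7, 713.8 and 698.3 CPM in Mito WT, and 1885, 1608 and 1706 CPM in Total otp90 against 1849, 1256 and 1738 CPM in Total WT. The genotypes overlap in both preparations. PSBY had 168 ± 4.65, 159 ± 9.28, 350 ± 31.6 and 334 ± 73.4 CPM per kilobase in the same groups. Its libraries had 198.5, 207.1 and 209.2 CPM in Mito otp90 against 189.6, 206.0 and 184.3 CPM in Mito WT, and 468.2, 421.3 and 391.8 CPM in Total otp90 against 457.5, 303.4 and 459.4 CPM in Total WT. These also overlap between genotypes. In the other duplicated subunits the dominant copy was also the same in all 4 groups. PSBO1 held between 71.8% and 75.5% of the PSBO level, PSAH2 between 73.2% and 78.3% of the PSAH level, PSAD1 between 55.7% and 60.3% of the PSAD level, and PSBQ2 between 57.1% and 60.3% of the PSBQ level. LHCB2.1 and LHCB2.2 were nearly even, with LHCB2.1 at 47.4% to 48.2%.

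How far such copies can be told apart depends on their sequences. Reads were 75 bases long, and reads that matched several places equally well were counted at each. In 35 of the 43 genes, no 75-base window of exon sequence occurred anywhere else in the nuclear genome. The exceptions were LHCB2.2, with 20.5% of its windows shared with LHCB2.1, LHCB2.1 with 16.2% shared with LHCB2.2, LHCB1.1 with 7.02% shared with LHCB1.3 and 3.39% with LHCB1.2, LHCB1.5 and LHCB1.4 with 9.27% and 7.27% shared with each other, and LHCA2 with 2.88%. The values of these 8 genes, which include LHCB1.2 and LHCB1.3, carry some reads of their copies and are uncertain to that extent. LHCB1.1, LHCB1.2 and LHCB1.3 lie together within 6835 bases of chromosome 1 (chr1:10472280-10479114), and their coding sequences are 95.6% to 96.4% identical. LHCB1.4 and LHCB1.5 lie head to head on chromosome 2 with 1038 bases between them.

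The windows below, read from the TAIR10.1 genome of RefSeq, show what a read can and cannot tell. They are 75 bases of coding sequence in the gene's own direction, and capitals mark bases that differ from LHCB1.3. The first set comes from the longest run shared by LHCB1.1 and LHCB1.3, of 119 bases.
LHCB1.3 (chr1:10478495-10478569, plus strand): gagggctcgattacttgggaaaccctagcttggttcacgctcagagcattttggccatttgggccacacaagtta
LHCB1.1 (chr1:10475394-10475468, minus strand): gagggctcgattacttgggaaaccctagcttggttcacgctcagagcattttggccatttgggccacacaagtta
LHCB1.2 (chr1:10472748-10472822, minus strand): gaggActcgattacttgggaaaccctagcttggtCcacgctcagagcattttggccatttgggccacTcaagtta
LHCB1.4 (chr2:14525239-14525313, plus strand): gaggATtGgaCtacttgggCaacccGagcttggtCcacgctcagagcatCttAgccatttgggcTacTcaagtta
LHCB1.5 (chr2:14523021-14523095, minus strand): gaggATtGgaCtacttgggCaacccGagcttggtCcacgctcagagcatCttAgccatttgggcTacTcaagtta
A read from this window of LHCB1.1 counts equally for LHCB1.3, whereas LHCB1.2 differs at 3 of the 75 bases and LHCB1.4 and LHCB1.5 at 11. In the second set, near the start of the coding sequence, the 3 neighbours on chromosome 1 differ most.
LHCB1.3 (chr1:10478080-10478154, plus strand): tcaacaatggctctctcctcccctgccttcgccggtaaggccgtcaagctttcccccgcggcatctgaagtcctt
LHCB1.1 (chr1:10475809-10475883, minus strand): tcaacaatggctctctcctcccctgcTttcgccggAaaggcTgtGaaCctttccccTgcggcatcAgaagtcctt
LHCB1.2 (chr1:10473163-10473237, minus strand): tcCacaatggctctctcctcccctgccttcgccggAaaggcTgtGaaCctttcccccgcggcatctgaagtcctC
Here LHCB1.1 differs from LHCB1.3 at 7 bases and LHCB1.2 differs at 6, so reads from this end separate the copies.

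The comparison of otp90 with WT asks whether the nuclear photosynthesis genes differ in plants with the insertion in OTP90. None of the 43 genes passed the test in either preparation. In Mito, 0 of 43 had an adjusted p under 0.05 (edgeR quasi-likelihood, Benjamini-Hochberg over all genes), where 0.0604% of 16570 genes did, and DESeq2 also called 0 of the 43. At an unadjusted p under 0.05 there was 1, PSBS, which is 1 of 43 where 6.96% of all genes passed. The changes ran from -0.10 for PSAK to 0.19 for PSBS on the log2 scale, with a median of -0.01 (all genes -0.004). Scaled by library size alone, without TMM factors, the median was -0.095 with 41 genes below 0, and all genes moved to -0.092. The 95% intervals of the single changes reached no further than 0.26 on the log2 scale to each side of the estimate. In bulk samples of this kind, fewer cells of a type and less RNA per cell cannot be told apart.

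In Total, 0 of the 43 genes passed (0% of 15373 genes did), DESeq2 called 0 of the 43, and 1 gene, LHCB4.3, had an unadjusted p under 0.05 (2.98% of all genes). The changes ran from -0.65 for LHCB4.3 to 0.17 for LHCB4.2, with a median of 0.05, and the intervals were wider, reaching up to 0.55 to each side. The small positive median, with 32 genes above 0 and 11 below, rested on single libraries. Without replicate 2 of Total WT it became -0.10 and 41 genes were below 0, and without replicate 1 of Total otp90 it became -0.01. Without replicate 1 or replicate 3 of Total WT it was 0.13 or 0.16, and without replicate 3 of Total otp90 it was 0.11. Scaled by library size alone, the Total median was -0.012 with 22 genes below 0, and the median over all genes was -0.086. No direction is therefore given for the group.

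**Figure D2:**
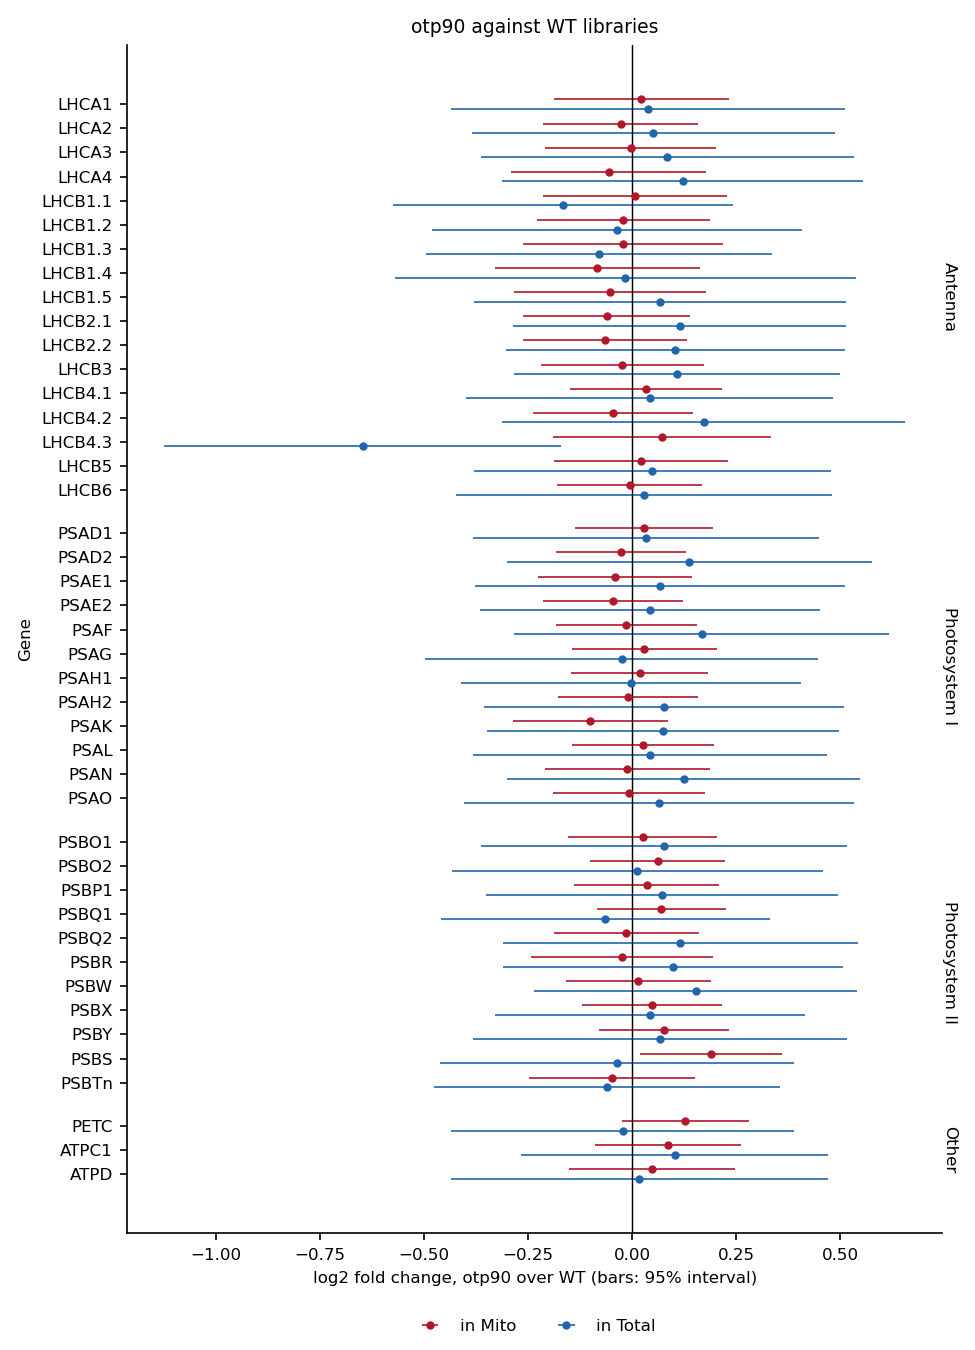
Log2 fold change of otp90 over WT in Mito and in Total for each of the 43 genes, with 95% intervals as bars. The intervals include 0 for all genes but PSBS in Mito and LHCB4.3 in Total, and the Total intervals are wider than the Mito intervals.

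The 2 genes whose 3 Mito otp90 libraries all lay above the 3 Mito WT libraries were PSBS and PETC, where 7.51% of all genes lay apart in this way, and 0 genes lay wholly below (5.43% of all genes). PSBS (AT1G44575, chr1:16870221-16873427, plus strand) encodes the sensor of lumen acidity that turns excess excitation into heat. It had 327.5, 363.9 and 375.6 CPM in Mito otp90, against 299.4, 318.0 and 312.9 CPM in Mito WT. The difference of 0.19 on the log2 scale (SE 0.0762) did not pass after adjustment (edgeR adjusted p = 0.661). In the other preparation it had 740.7, 781.9 and 642.8 CPM in Total otp90 against 802.3, 576.9 and 838.1 CPM in Total WT. The groups overlap there, and replicate 2 of Total WT is the lowest.

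PETC (AT4G03280), the Rieske iron-sulfur protein of the cytochrome b6f complex, had 226.3, 239.5 and 247.4 CPM in Mito otp90 against 208.6, 222.1 and 218.5 CPM in Mito WT. The change was 0.13 on the log2 scale (SE 0.0684, edgeR adjusted p = 0.757). Its Total values were 564.8, 526.4 and 461.4 CPM in otp90 and 565.6, 414.2 and 593.3 CPM in WT, which overlap. The lowest changes in Mito were those of PSAK, a membrane subunit at the antenna side of photosystem I, and LHCB1.4. PSAK had 234.2, 262.9 and 268.4 CPM in Mito otp90 against 275.0, 289.9 and 251.5 CPM in Mito WT, a change of -0.10 (SE 0.0830, edgeR adjusted p = 0.848). LHCB1.4 had 2014, 1583 and 1885 CPM in Mito otp90 against 1991, 1884 and 1904 CPM in Mito WT, a change of -0.08 (SE 0.110, edgeR adjusted p = 0.917). In both genes the groups overlap.

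LHCB4.3 was the only gene of the 43 whose Total otp90 libraries all lay below its Total WT libraries (4.33% of all genes did so), and 0 genes lay wholly above (4.64% of all genes). It had 15.4, 13.8 and 9.51 CPM in Total otp90, against 17.8, 20.2 and 22.5 CPM in Total WT. The change of -0.65 on the log2 scale (SE 0.200, 95% interval -1.12 to -0.17) had an unadjusted p of 0.0149 and an adjusted p of 0.9996 (edgeR), so it did not pass. In Mito the gene had 7.81, 9.91 and 7.41 CPM in otp90 and 7.37, 8.57 and 7.94 CPM in WT, with overlap. Unlike the other 42 genes, LHCB4.3 was not lowest in replicate 2 of Total WT.

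The next smallest p in Total belonged to LHCB1.1, PSBW and PSAF. LHCB1.1 had 6021, 5216 and 4796 CPM in Total otp90 against 6445, 4781 and 6715 CPM in Total WT, a change of -0.17 (SE 0.172). PSBW, a low-mass photosystem II subunit, had 1340, 1132 and 1151 CPM in Total otp90 against 1198, 868.3 and 1183 CPM in Total WT, a change of 0.15 (SE 0.163). PSAF, the plastocyanin-docking subunit of photosystem I, had 1418, 1226 and 1147 CPM in Total otp90 against 1183, 856.2 and 1327 CPM in Total WT, a change of 0.17 (SE 0.189). Groups overlap in all of them, and each has an adjusted p of 0.9996 (edgeR).

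By class, the median change of otp90 over WT in Mito was -0.02 for the antenna, -0.01 for photosystem I and 0.03 for photosystem II on the log2 scale. Leaving out 1 library moved it between -0.06 and 0.02 for the antenna, between -0.04 and 0.01 for photosystem I and between 0.01 and 0.07 for photosystem II. In Total the median was 0.05 for the antenna, 0.07 for photosystem I and 0.07 for photosystem II. Without replicate 2 of Total WT these became -0.11, -0.09 and -0.09, and without replicate 1 of Total otp90 they became -0.03, -0.01 and 0.00078 in the same order. No class therefore has a direction in Total that holds without these libraries.

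The comparison of Mito with Total asks what the preparation does to these messages, and it was made in each genotype from separate libraries. Nearly all of the 43 genes were lower in Mito, relative to the other genes. In otp90, 43 of 43 fell (edgeR adjusted p between 9.76e-05 and 0.0430), where 22.3% of all genes fell and 24.8% rose. In WT, 42 of 43 fell, where 20.9% of all genes fell and 22.8% rose. The median change was -1.07 in each genotype, or 0.476 of the Total level, whereas the median over all genes was 0.02 in otp90 and 0.003 in WT. Each Mito library lay below each Total library for 42 genes in otp90 (29.3% of all genes) and for 43 genes in WT (28.4% of all genes), and 0 genes lay wholly above (28.8% of all genes in otp90 and 28.5% in WT). With library size alone in place of TMM factors, all genes moved up by 0.47 in otp90 and 0.48 in WT at the median, the median of the 43 genes was -0.61 in otp90 and -0.57 in WT, and 37 and 34 of them fell. In those fits 7.4% of all genes fell and 53.8% rose in otp90, and 5.96% fell and 47.4% rose in WT.

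**Figure D3:**
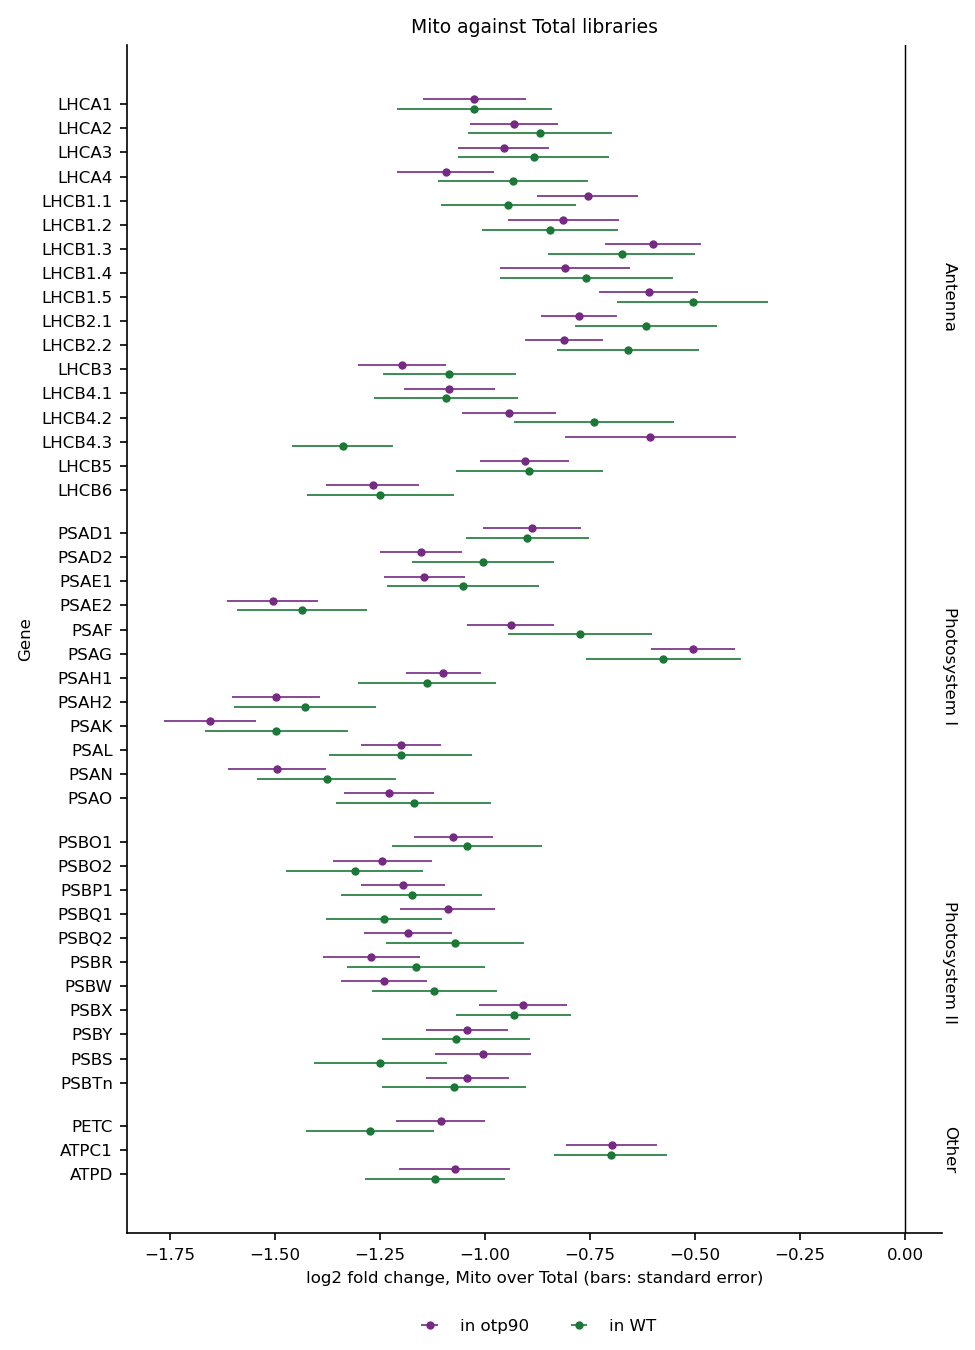
Log2 fold change of Mito over Total in otp90 and in WT for each of the 43 genes, with standard errors as bars. All points lie left of 0, PSAK is lowest in both genotypes, PSAG and LHCB1.5 are among the nearest to 0, and LHCB4.3 is the gene with the largest gap between the genotypes.

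The 4 genes with the smallest p in otp90 were photosystem I subunits. PSAK had 234.2, 262.9 and 268.4 CPM in Mito otp90 against 895.7, 789.7 and 753.8 CPM in Total otp90, a change of -1.65 on the log2 scale (SE 0.109, edgeR adjusted p = 9.76e-05). In WT it had 275.0, 289.9 and 251.5 CPM in Mito against 859.3, 591.8 and 859.8 CPM in Total, a change of -1.50 (SE 0.170, adjusted p = 0.00103). The preparations are far apart in both genotypes. PSAH2, a copy of the subunit where mobile antenna trimers dock, had 213.4, 212.1 and 236.8 CPM in Mito otp90 against 690.9, 625.0 and 577.1 CPM in Total otp90, a change of -1.50 (SE 0.106, edgeR adjusted p = 0.000116). In WT the same gene had 230.6, 220.3 and 212.5 CPM in Mito against 677.6, 454.2 and 658.5 CPM in Total, a change of -1.43 (SE 0.169).

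PSAE2 had 54.2, 51.0 and 60.2 CPM in Mito otp90 against 175.6, 144.9 and 154.8 CPM in Total otp90, a change of -1.51 (SE 0.108, edgeR adjusted p = 0.000119). Its WT libraries gave 58.0, 55.1 and 56.6 CPM in Mito against 175.4, 119.6 and 165.0 CPM in Total, a change of -1.44 (SE 0.154, adjusted p = 0.000879). PSAN, the lumenal subunit of photosystem I, had 338.5, 314.5 and 377.1 CPM in Mito otp90 against 1076, 975.4 and 887.1 CPM in Total otp90, a change of -1.49 (SE 0.116, edgeR adjusted p = 0.000149). In WT the change of PSAN was -1.38 (SE 0.165). None of these genes overlapped between preparations, even with the low replicate 2 of Total WT.

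In WT the genes with the smallest p also included LHCB4.3 and PSBQ1. LHCB4.3 had 7.37, 8.57 and 7.94 CPM in Mito WT against 17.8, 20.2 and 22.5 CPM in Total WT, a change of -1.34 (SE 0.120, edgeR adjusted p = 0.000581). In otp90 its change was -0.61 (SE 0.203, edgeR adjusted p = 0.0430), and 1 Mito otp90 library (9.91 CPM) lay above 1 Total otp90 library (9.51 CPM). This call in otp90 was lost in 5 of the 6 fits that left out 1 library, all but the fit without replicate 3 of Total otp90. PSBQ1, a copy of the smallest extrinsic protein of the oxygen-evolving complex, had 259.2, 265.5 and 249.2 CPM in Mito WT against 647.2, 502.5 and 682.9 CPM in Total WT, a change of -1.24 (SE 0.138, edgeR adjusted p = 0.000964). In otp90 its change was -1.09 (SE 0.113).

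The least lowered genes belonged mainly to the LHCB1 and LHCB2 copies of the major antenna. PSAG, a membrane subunit related to PSAK, had 505.2, 469.7 and 497.6 CPM in Mito otp90 against 786.0, 668.2 and 660.2 CPM in Total otp90, a change of -0.50 (SE 0.0993), and in WT its change was -0.58 (SE 0.185). LHCB1.3 had a change of -0.60 in otp90 (SE 0.114). LHCB1.5 had 3561, 3477 and 3453 CPM in Mito WT against 5527, 3757 and 5646 CPM in Total WT, and it was the only gene of the 43 that did not pass in WT, at -0.51 (SE 0.180, edgeR adjusted p = 0.0591). In otp90 it had 3620, 3062 and 3476 CPM in Mito against 5836, 4652 and 5217 CPM in Total, a change of -0.61 that passed (SE 0.117, edgeR adjusted p = 0.00488).

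The calls in WT depended in part on single libraries. Leaving out replicate 2 of Total WT, the low one, gave 43 of 43 genes and a median of -1.28, and in that fit 31.4% of all genes fell. Each of the other 5 libraries, when left out, gave 35 or 36 where 13.0% to 17.7% of all genes fell, so the share called moved for all genes too. The genes lost were among LHCB1.3, LHCB1.4, LHCB1.5, LHCB2.1, LHCB2.2, LHCB4.2, PSAF and PSAG. All 43 genes stayed negative in each of these fits.

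Between classes, the median change of the antenna was nearer to 0 than those of the photosystems, which is given as a description. Class goes with transcript length in these genes, as given below, and the part of each was not tested. In otp90 the median change was -0.91 for the 17 antenna genes, -1.18 for the 12 photosystem I genes and -1.09 for the 11 photosystem II genes, and in WT it was -0.88, -1.15 and -1.12 in the same order. Without replicate 2 of Total WT, the WT medians were -1.11, -1.38 and -1.31, and without replicate 1 of Total otp90, the otp90 medians were -0.89, -1.15 and -1.06. Within the antenna, the 8 trimer genes had medians of -0.79 in otp90 and -0.72 in WT, the 4 LHCA genes -0.99 and -0.91, and the 5 genes of the minor antenna -0.94 and -1.09. The trimer genes were not alike, and LHCB3 fell most of them, by -1.20 in otp90 and -1.08 in WT. The WT medians of these groups without replicate 2 of Total WT were -0.95, -1.13 and -1.31. Of the 10 least lowered genes, 8 were antenna genes in otp90 and 7 in WT, and none was a photosystem II gene in either. Of the 10 most lowered, 6 were photosystem I genes in otp90 and 4 in WT. The order of the genes was much alike in both genotypes, which share no library (Pearson r = 0.812, Spearman rho = 0.789 over the 43 genes, which are not independent replicates).

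The class sums showed the same in each library. The antenna genes took 3.73 ± 0.170% of all counts in Mito otp90, 4.04 ± 0.0977% in Mito WT, 4.85 ± 0.377% in Total otp90 and 5.02 ± 0.534% in Total WT (SD, n = 3 each). Photosystem I genes took 0.510 ± 0.00600%, 0.544 ± 0.0144%, 0.819 ± 0.0601% and 0.812 ± 0.0918% in the same groups, and photosystem II genes 0.675 ± 0.0184%, 0.703 ± 0.0234%, 1.08 ± 0.0724% and 1.08 ± 0.109%. Without replicate 1 of Total otp90 and replicate 2 of Total WT, the antenna share was 4.65% in Total otp90 and 5.33% in Total WT, the photosystem I share 0.787% and 0.865%, and the photosystem II share 1.05% and 1.14% (n = 2 each). The preparations also differ in the share of counts from nuclear genes, and the gap was wider when the classes were set against nuclear counts alone. Antenna genes then took 7.23% to 8.02% of nuclear counts in Mito otp90 against 12.3% to 13.9% in Total otp90, and 7.87% to 8.25% in Mito WT against 10.5% to 13.8% in Total WT. Photosystem I genes took 1.04% to 1.07% in Mito otp90 against 2.07% to 2.33% in Total otp90, and 1.03% to 1.14% in Mito WT against 1.68% to 2.25% in Total WT.

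The ratio of antenna to photosystem I, by summed CPM per kilobase, was 5.17 to 5.59 in Mito otp90 against 4.28 to 4.38 in Total otp90. In WT it was 5.35 to 5.66 in Mito against 4.45 to 4.57 in Total. The 2 preparations did not overlap in either genotype, nor did they in the ratio of antenna to photosystem II, at 4.68 to 4.96 in Mito otp90 against 3.83 to 3.99 in Total otp90 and 4.94 to 5.07 in Mito WT against 3.99 to 4.16 in Total WT. The ratio of photosystem II to photosystem I stayed between 1.08 and 1.15 in all 12 libraries.

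**Figure D4:**
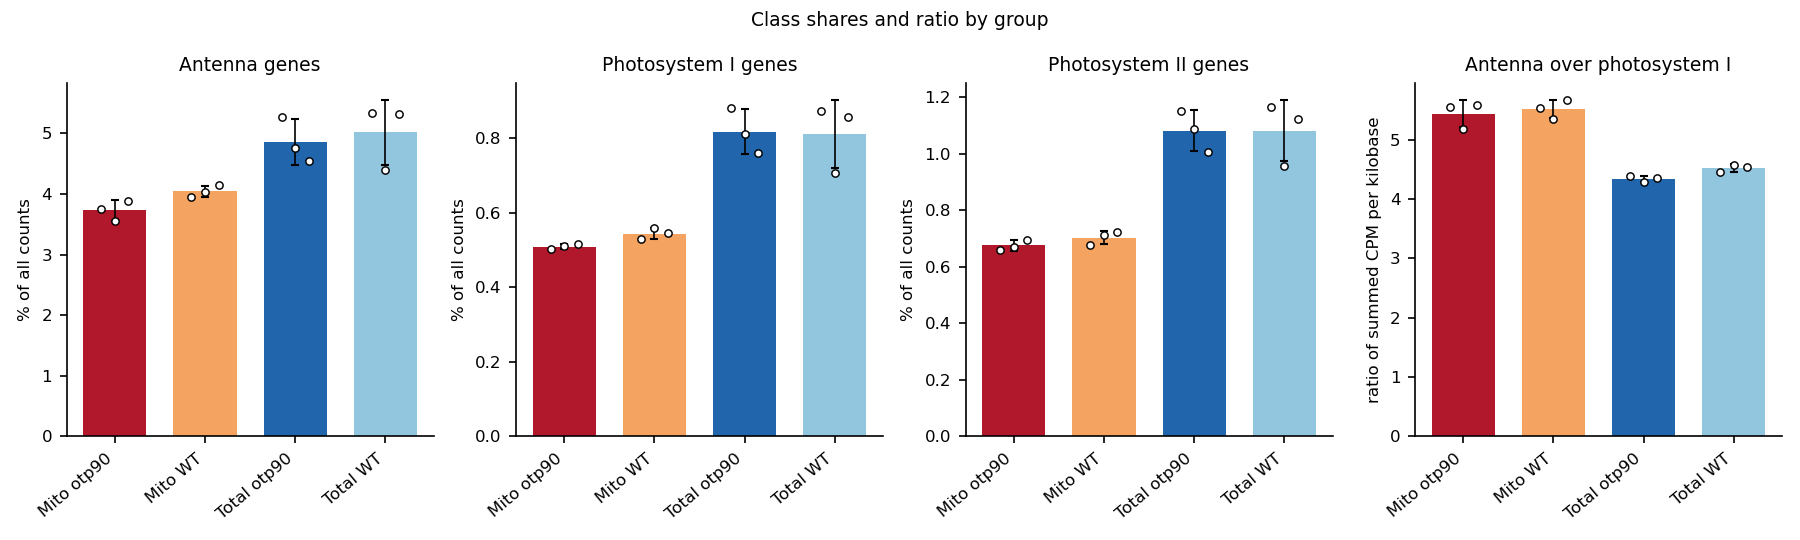
Share of all counts taken by the antenna, photosystem I and photosystem II genes, and the ratio of antenna to photosystem I by summed CPM per kilobase, in Mito otp90, Mito WT, Total otp90 and Total WT (bars, mean; error bars, SD of 3 libraries; points, libraries; all axes start at 0). All 3 shares are lower in Mito, and the ratio is higher, at 5.44 and 5.51 in the Mito groups and 4.34 and 4.52 in the Total groups.

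Between genotypes, the ratio of antenna to photosystem I lay apart in Total, at 4.28 to 4.38 in Total otp90 against 4.45 to 4.57 in Total WT, and overlapped in Mito. This separation depended on how the ratio was formed. The ratio was also formed from counts, not scaled to length, with the summed counts of the 3 LHCB1 copies of chromosome 1 divided by 3. It was then 4.53 to 4.69 in Total otp90 against 4.68 to 4.74 in Total WT, a narrow overlap. The ratio of antenna to photosystem II overlapped as well. Both changes to the ratio of antenna to photosystem I were made at once, and the part of each was not tested. No difference between genotypes is therefore read from it. The ratio is a sum over chosen genes led by LHCB1.3, and no test was made of it.

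Several features moved with the difference between preparations. Transcript length was one. Over all nuclear genes tested, the change of Mito over Total rose with the deposited exon length (Spearman rho = 0.497 over 16152 genes in otp90 and 0.543 over 16255 genes in WT), and the 43 genes are short, from 607 to 1808 bases. Within the 43 genes the correlation with length was weaker (Spearman rho = 0.413 in otp90 and 0.260 in WT). The 12 photosynthesis genes of 600 to 1000 bases had a median change of -1.19 in otp90 and -1.14 in WT, against -0.46 and -0.50 for all genes of that length. The other 31, of 1000 to 2000 bases, had a median of -1.0 in otp90 and -1.03 in WT, against -0.16 and -0.17 for all genes of that length. Their medians thus lay below those of genes of like length, and the part of length in the result was not tested. Class went with length, since all 12 genes below 1000 bases were photosystem genes and the antenna genes had 1045 to 1625 bases. The part of length in the order of the classes was not tested either.

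Exon structure was another. The aligner opened no introns, so a read across an exon junction was not aligned in full, and between 73.4% (PSBR) and 100% of the 75-base windows of a spliced message lie inside 1 exon. The 14 genes whose exon sequence is 1 block had median changes of -0.85 in otp90 and -0.87 in WT, against -1.11 and -1.14 for the 29 with 2 or more blocks. The same order held within each class. In the antenna, genes of 1 block had -0.78 and the others -0.96 in otp90, and -0.75 and -0.93 in WT. In photosystem I it was -0.89 against -1.23 in otp90 and -0.90 against -1.20 in WT. In photosystem II it was -1.04 against -1.19 in otp90 and -1.07 against -1.17 in WT. These medians rest on as few as 3 genes, and the part of exon structure was not tested.

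Markers of leaf cell types moved with the preparation too. Of the 3 mesophyll genes, RBCS1A (-0.63 in otp90 and -0.96 in WT) and CA1 (-0.95 and -1.25) fell in Mito, and RCA did not pass. Both phloem genes fell, SUC2 (-0.99 in otp90 and -1.13 in WT) and APL (-1.74 and -1.50). Of the epidermis genes, ATML1 rose (0.64 in otp90 and 0.54 in WT) and CER6 did not pass. GL2 was also called higher (2.26 and 2.34). Its means were 3.99 CPM in Mito against 0.835 in Total for otp90, and 3.63 against 0.718 for WT. GL2 passed the filter on low counts only through the Mito libraries, so a rise was built into its entry. The epidermis list summed to 287 to 307 CPM in Mito otp90 and 280 to 297 in Mito WT, against 221 to 252 in Total otp90 and 160 to 238 in Total WT. The 3 guard cell genes did not move together. MYB60 fell in both genotypes (-1.56 and -1.93), but it had means of 0.952 CPM in Mito otp90 and 0.738 in Mito WT. It passed the filter on low counts through Total. KAT1 rose in WT (0.65, edgeR adjusted p = 0.0487), where FAMA was at -0.06 and did not pass. In otp90 the changes of KAT1 and FAMA were positive, between 0.62 and 0.69, and did not pass. The part of cell type in the result was not tested.

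The test of the difference between the genotype effects, Mito against Total, called 0 of the 43 genes (0% of 16825 genes, edgeR), DESeq2 called 0 of them, and 1 had an unadjusted p under 0.05 (5.08% of all genes). That gene was LHCB4.3, at 0.72 on the log2 scale (SE 0.248, unadjusted p = 0.0142, edgeR adjusted p = 0.930). PSBS followed at 0.23 (SE 0.194, adjusted p = 0.945). The lowest were LHCB4.2 at -0.22 (SE 0.228) and LHCB2.1 at -0.17 (SE 0.190). LHCB4.2 had 685.4, 639.9 and 755.3 CPM in Mito otp90, 707.1, 724.5 and 705.9 in Mito WT, 1498, 1222 and 1328 in Total otp90 and 1323, 860.8 and 1397 in Total WT. LHCB2.1 had 1720, 1733 and 1809 CPM in Mito otp90, 1920, 1832 and 1709 in Mito WT, 3209, 2838 and 3072 in Total otp90 and 3048, 2178 and 3173 in Total WT. In both, the groups overlap between genotypes. The 95% intervals reached 0.44 to each side at the median, from 0.37 for ATPC1 to 0.60 for LHCB1.4, and apart from LHCB4.3 all of them included 0.

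Other genes of the photosynthetic membrane, counted from lists, were compared between preparations in the same fits, in which 22.3% of all genes fell and 24.8% rose in otp90 and 20.9% fell and 22.8% rose in WT. Of the further members of the light-harvesting family, 11 of the 11 tested fell in Mito in each genotype, with medians of -1.10 in otp90 and -1.19 in WT. They include OHP1 (-1.45 and -1.41), a single-helix protein of photosystem assembly, and ELIP1 (-2.58 and -2.90), an antenna relative made in high light. ELIP1 had means of 0.454 CPM in Mito otp90 and 0.432 in Mito WT, against 2.75 in Total otp90 and 3.24 in Total WT. It passed the filter on low counts only through Total, so a fall was built into its entry. ELIP2, the other gene of this list, had a mean of at most 0.279 CPM in any group and was not tested. Of 11 electron transport genes, 10 fell in otp90 and 8 in WT, such as FNR1 (-1.11 and -1.16), the ferredoxin-NADP reductase, and ATPC2 rose in otp90 (0.64). Of 8 genes for antenna import and state kinases, 6 fell in otp90 and 7 in WT, such as PBCP (-1.22 and -1.30), a photosystem II core phosphatase.

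Chlorophyll synthesis was mixed, with 7 of 17 genes lower and 1 higher in otp90 and 12 lower and 1 higher in WT. CHLG, the chlorophyll synthase, fell (-0.80 and -0.97), and PORA, a protochlorophyllide reductase of dark-grown seedlings, was the gene that rose (1.28 and 1.75). Of 8 regulators, GLK1 (-0.71 and -0.32) and GLK2 (-0.78 and -0.62), which activate antenna genes, fell in both genotypes, and GNC fell in WT. That is 2 of 8 in otp90, close to the 22.3% of all genes, and 3 of 8 in WT. Of 7 clock genes tested, GI rose (0.68) and PRR9 fell (-0.44) in otp90, a smaller share than that of all genes called. In WT, GI (0.76, edgeR adjusted p = 0.0559) and PRR9 (-0.41, edgeR adjusted p = 0.127) had values of like size and did not pass. No gene of these lists was called in the test of the difference between genotypes. In otp90 against WT, 0 genes of these lists passed in either preparation.

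Upstream sequence played no part in the choice of the genes. In the 250 bases before each annotated start, read on both strands from the RefSeq genome TAIR10.1, the G-box CACGTG, known as a site of light-signalling factors, occurred in 9 of 43 genes (20.9%), against 5.90% of 32540 nuclear genes. The I-box GATAAG occurred in 10 (23.3%) against 12.4%, and TATAAA in 18 (41.9%) against 46.1%. CCAAT, the box bound by NF-Y factors, occurred in 28 (65.1%) against 45.4%, and by class it was in 16 of 17 antenna genes, 7 of 12 photosystem I genes and 2 of 11 photosystem II genes. The CCA1-binding letters AAAAATCT or AACAATCT occurred in 6 (14.0%) against 8.15%, and the evening element AAATATCT in 1 (2.33%) against 4.56%. Among the 16251 nuclear genes tested in Mito against Total in WT, the share was 7.41% for the G-box and 12.5% for the I-box. It was 45.0% for TATAAA, 48.7% for CCAAT, 8.50% for the CCA1-binding letters and 4.83% for the evening element. A match is a description of these letters only.

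The upstream sequences of LHCB1.3, the most abundant gene, and of the gene with the most matches in each class (LHCA4, PSAH2 and PSBQ2) are given 5′ to 3′ in the direction of the gene, ending at the base before the annotated start, with the matched letters in capitals.
LHCB1.3 (chr1:10477635-10477884, plus strand): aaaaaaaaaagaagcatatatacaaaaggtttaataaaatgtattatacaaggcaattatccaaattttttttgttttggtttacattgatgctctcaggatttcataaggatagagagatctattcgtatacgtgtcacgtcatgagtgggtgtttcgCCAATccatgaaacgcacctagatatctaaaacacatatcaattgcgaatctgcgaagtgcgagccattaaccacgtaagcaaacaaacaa
LHCA4 (chr3:17495034-17495283, minus strand): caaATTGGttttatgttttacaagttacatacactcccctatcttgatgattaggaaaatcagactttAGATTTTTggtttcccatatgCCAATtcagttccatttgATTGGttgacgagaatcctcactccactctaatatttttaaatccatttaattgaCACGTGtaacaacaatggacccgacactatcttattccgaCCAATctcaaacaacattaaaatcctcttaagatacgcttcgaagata
PSAH2 (chr1:19454548-19454797, plus strand): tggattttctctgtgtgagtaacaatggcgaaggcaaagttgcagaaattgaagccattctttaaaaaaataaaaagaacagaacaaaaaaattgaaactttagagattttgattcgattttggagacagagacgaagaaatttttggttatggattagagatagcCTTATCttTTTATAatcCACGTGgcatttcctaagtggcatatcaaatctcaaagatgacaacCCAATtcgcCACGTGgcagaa
PSBQ2 (chr4:2673244-2673493, minus strand): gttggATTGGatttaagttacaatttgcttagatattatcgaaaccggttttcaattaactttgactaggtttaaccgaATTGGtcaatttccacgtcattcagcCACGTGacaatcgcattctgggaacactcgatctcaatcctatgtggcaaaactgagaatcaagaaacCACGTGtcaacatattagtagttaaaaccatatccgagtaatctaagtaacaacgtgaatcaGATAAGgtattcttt
LHCA4 holds 6 matches, of which 4 are CCAAT, whereas LHCB1.3 holds a single CCAAT. PSAH2 and PSBQ2 hold 5 matches each, with G-boxes in both. PSAH2 was among the most lowered genes in Mito and LHCB1.3 among the least, and neither was called between otp90 and WT.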

How the data were processed

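Leaf RNA was depleted of ribosomal RNA and sequenced as stranded single-end reads. Per the study's methods, STAR aligned reads to the TAIR10 genome of Ensembl Genomes with the Col-0 mitochondrial genome, without introns and with every best position reported. The deposited values are raw counts per gene, made by the authors with featureCounts 1.6.3 over exons, stranded, with multi-mapping reads included, 1 file per library. Genes above 1 CPM in at least 3 libraries were kept, and edgeR 4.0.16 (R 4.3.3, TMM factors, quasi-likelihood test, adjusted p under 0.05) was fitted to all of them on the 6 libraries compared, or on 12 for the interaction. Changes are log2 fold changes. Lengths are those in the deposited tables, and sequences come from RefSeq TAIR10.1, in which all 43 genes have the same span. Class shares were taken of all counts, and alternatively of nuclear counts, of counts without psbA, and with LHCB1.1, LHCB1.2 and LHCB1.3 entered once. Alternatives were DESeq2 1.42.0, library size alone, nuclear genes only, no filter, 1 fit of 12 libraries, the replicate block and leaving out each library.

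The gene members and gene lists were chosen with earlier results of these data known. Per-library values are given for the 4 genes with the smallest p in each direction among those called in a comparison (2 where fewer than 2 were called), and for the highest and lowest gene per length in each class. PSAG and LHCB1.5, among the least lowered, were chosen after their values were seen. Replicate numbers were checked for pairing by the correlation of same-numbered libraries' deviations from their group means. They were 0.403, 0.386 and 0.107 between otp90 and WT in Mito, and no such pattern held in the other comparisons.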

Additional observations from a re-analysis of the deposited data

How the results depend on the processing

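With the replicate block, 0 of the 43 genes passed between otp90 and WT in Mito, in Total and in the interaction, as without it, although over all genes the block moved the calls in Mito to 143 higher and 78 lower, against 7 higher and 3 lower. For Mito against Total the block gave 43 genes in otp90 and 37 in WT, against 43 and 42. Over all genes, 20.7% fell in otp90 and 17.9% in WT with the block, against 22.3% and 20.9% without it. Same-numbered libraries were positively correlated in every replicate only between genotypes in Mito. These correlations were not set against those of differently numbered libraries. The main fits used no block in any comparison, so the p-values and SE of the genotypes in Mito are those of unpaired fits.

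Under DESeq2, nuclear genes only, no filter and a fit of all 12 libraries, 42 or 43 genes fell in Mito against Total in each genotype. Over all genes in those fits, 15.8% to 23.7% fell in otp90 and 14.3% to 23.3% in WT. Library size alone gave 37 in otp90 and 34 in WT, and leaving out 1 library gave 42 to 43 in otp90 and 35 to 43 in WT. The share of all genes called lower moved as well, to 7.4% and 5.96% with library size alone, and between 15.9% and 27.1% in otp90 and 13.0% and 31.4% in WT when 1 library was left out. The class shares moved with the counts they were taken of, and each class was lower in every Mito library than in every Total library under each choice. No change of direction occurred in these counts. In otp90 against WT, 0 of the 43 genes passed under any alternative run. Counting error is largest for LHCB4.3, with 207 to 980 counts per library. Over all genes, DESeq2 called 89 higher and 16 lower in Mito and 9 and 9 in Total between otp90 and WT, and without a filter 79 and 16 were called in Mito.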
